A study of Mus musculus with 7 samples.

Results

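The islet hormone genes Ins2, Iapp, Ucn3, Gcg, Sst, Ppy, Pyy and Ghrl were followed in mouse pancreatic islets, the clusters of endocrine cells of the pancreas. They were picked by symbol from the deposited array table, as rows whose platform annotation gives exactly 1 gene symbol, and all 8 were found among 14807 genes, each with a single probe set. Islets of 4 control littermates (numbered 1 to 4) were compared with islets of 3 mice in which FoxO1, FoxO3 and FoxO4 were deleted in beta cells (numbered 5 to 7). The labels give both groups the same mixed background, 129 x FVBn x C57BL/6, describe the littermates as matched for age and sex, and state no age. They do not name the transgene that drives the deletion, whether controls carry it, or whether animals were pooled for a sample, and nothing in them explains the prefix R+ that the knockout titles carry. P-values therefore set a difference only against the spread between these samples, drawn toward a spread pooled over all genes. The number of arrays limits the precision. Values are log2 signals made by the authors with RMA, which corrects background, brings the arrays to a common scale and combines the probes of each set into 1 value.

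Each main islet cell type is defined by its hormone. Beta cells make insulin and co-secrete islet amyloid polypeptide, alpha cells make glucagon, delta cells make somatostatin, PP cells make pancreatic polypeptide, and the rare epsilon cells make ghrelin. Insulin lowers blood glucose, glucagon raises it, and somatostatin restrains the secretion of both. Because hormone transcripts are so abundant, their array probes can approach the top of the measurable range, where a real difference in RNA gives a smaller difference in signal. RMA values carry no saturation mark, so what could be described here is closeness to the brightest probe set of each array and the spread between samples.

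For 7 of the genes, all members but Ins2, a promoter sequence was given in RefSeq's annotation of GRCm38.p6. The insulin gene is therefore not covered by this search. The 250 bases before the transcription start were searched on both strands for the FoxO consensus GTAAACA, the shorter forkhead core TAAACA that it contains, the cyclic AMP response element TGACGTCA and the TATA box TATAAA. The FoxO consensus was in 0 of these 7 windows, against 3.17% of all 32851 promoter windows. The forkhead core was in the Gcg window alone of the 7, against 12.0% of all windows, and the cyclic AMP element, the textbook regulatory site of the somatostatin gene, was in the Sst window alone, against 1.55%. A TATA box, counted only as the exact letters TATAAA, was in the windows of Gcg and Ppy, against 12.4%. Variant forms of the box were not counted, so a window without a match may still hold one. These matches describe letters in a window and show no binding. Below are Gcg, Sst and Ppy, which hold these matches and were among the 4 brightest genes, and Pyy, a relative of Ppy and its neighbour on chromosome 11, with no annotated gene starting between them. Capitals mark every match, sequences run 5′ to 3′ on the strand of the gene, and all 4 lie on the minus strand.
Gcg, chr2:62483654-62483903: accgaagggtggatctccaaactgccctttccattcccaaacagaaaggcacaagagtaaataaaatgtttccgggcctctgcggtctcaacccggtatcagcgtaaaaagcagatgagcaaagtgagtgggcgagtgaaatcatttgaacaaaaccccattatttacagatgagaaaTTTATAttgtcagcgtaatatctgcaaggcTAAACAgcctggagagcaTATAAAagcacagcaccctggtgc
Sst, chr16:23890845-23891094: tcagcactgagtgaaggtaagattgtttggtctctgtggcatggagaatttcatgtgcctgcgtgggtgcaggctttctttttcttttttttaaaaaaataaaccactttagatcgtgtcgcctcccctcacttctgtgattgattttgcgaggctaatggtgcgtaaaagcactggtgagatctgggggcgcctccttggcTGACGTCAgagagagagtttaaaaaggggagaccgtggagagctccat
Ppy, chr11:102101320-102101569: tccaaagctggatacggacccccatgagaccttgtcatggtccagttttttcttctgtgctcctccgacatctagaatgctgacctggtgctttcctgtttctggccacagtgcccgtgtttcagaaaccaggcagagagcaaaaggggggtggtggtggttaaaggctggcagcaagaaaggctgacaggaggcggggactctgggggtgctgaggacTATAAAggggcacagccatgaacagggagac
Pyy, chr11:102107833-102108082: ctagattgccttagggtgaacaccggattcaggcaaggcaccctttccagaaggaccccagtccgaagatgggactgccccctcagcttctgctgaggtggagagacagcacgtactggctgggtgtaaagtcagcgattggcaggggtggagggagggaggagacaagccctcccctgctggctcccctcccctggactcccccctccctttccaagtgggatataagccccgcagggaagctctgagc
In the Gcg window the forkhead core lay 42 to 37 bases before the start, a TATA box lay 24 to 19 bases before it, and a second TATA match lay on the opposite strand at 72 to 67 bases. The cyclic AMP element of Sst lay 48 to 41 bases before the start used here, and the TATA box of Ppy 31 to 26 bases before its own.

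Hormone genes held the top of the arrays. By mean signal over the 7 samples Ppy ranked 1, Iapp 2, Sst 3 and Gcg 4 of 14807 genes, Ins2 ranked 16, Pyy 38 and Ucn3 45. Ghrl ranked 7998, below the median gene. These are ranks of signal, and since probe sets differ in how strongly they respond, they do not order the amounts of RNA: Ppy, the hormone gene of a minor cell type, gave a brighter signal than Ins2, although insulin is the dominant product of islets. The other 6 of the 10 brightest genes were Mt1 and Mt2, which encode metallothioneins, Chga, the granule protein chromogranin A, Ttr, transthyretin, which is abundant in alpha cells, G6pc2, the islet glucose-6-phosphatase, and Cd164, a sialomucin.

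The order of the brightest hormones was nearly fixed across samples. Ppy was the brightest named gene in 5 samples and Iapp in control 4 and knockout 7, where Ppy came next. Gcg ranked between 4 and 6 in every sample, Sst between 2 and 5, and Iapp between 1 and 3. Ins2 ranked 14, 15, 24 and 21 in controls 1 to 4 and 14, 12 and 15 in knockouts 5 to 7. It thus stood lower in controls 3 and 4 than in the other 5 samples. Pyy moved most among the bright members, from 21 in knockout 5 to 67 in knockout 7, and Ucn3 ranged from 32 in control 3 to 66 in knockout 5.

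**Figure D1:**
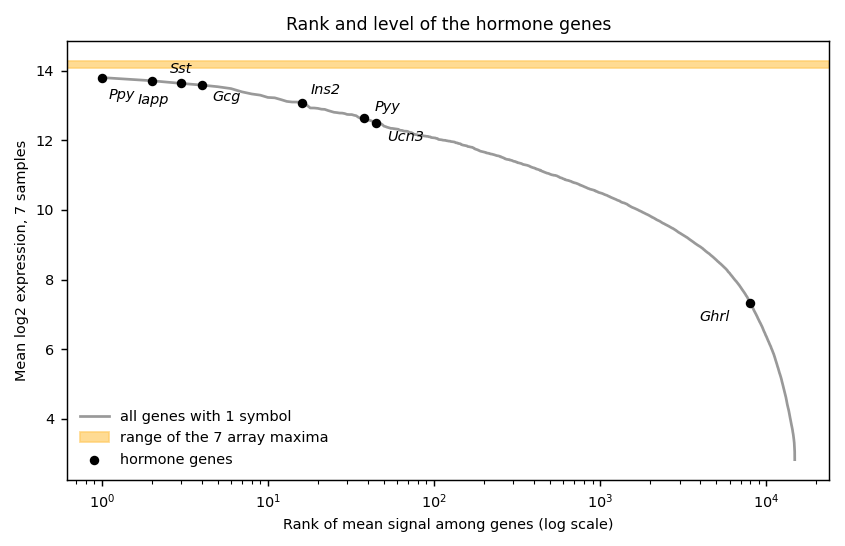
Mean log2 expression of 14807 genes over 7 samples (vertical axis) against rank of that mean (horizontal axis, log scale), with the 8 hormone genes as black points and the range of the 7 array maxima, 14.08 to 14.28, as a band. Ppy, Iapp, Sst and Gcg occupy ranks 1 to 4, just under the band, and Ghrl lies far down the curve at rank 7998.

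The single brightest probe set was the same on all 7 arrays and has no gene symbol in the annotation used. Its value, the array maximum, was 14.20, 14.16, 14.15 and 14.08 in controls 1 to 4 and 14.28, 14.27 and 14.22 in knockouts 5 to 7, so the maxima of the groups did not overlap. Ppy lay 0.39 below this maximum on average over the samples, with distances of 0.25 to 0.49. Iapp lay 0.49 below it (0.35 to 0.62), Sst 0.56 (0.43 to 0.63) and Gcg 0.61 (0.51 to 0.69). On the linear scale the brightest probe set thus exceeded Ppy 1.31-fold and Gcg 1.53-fold. Only 2 to 5 of the 23238 probe sets, the brightest itself included, came within 0.5 of the maximum on any array, and 1 to 3 of them were hormone genes.

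The remaining members lay further below the brightest probe set, whose value is not a known limit of the signal. Ins2 lay 1.12 below the maximum on average, from 0.99 in control 1 to 1.36 in control 3, Pyy 1.57 and Ucn3 1.69. Ghrl lay 6.88 below it, so that its signal was 118 times weaker than the brightest probe set. Within 1 log2 unit of the maximum were 18 to 41 probe sets per array, with 4 or 5 hormone genes among them, the fifth being Ins2 in control 1 and knockout 7.

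Spread between samples was narrow at both ends of the scale. The SD within groups was 0.04 for Gcg, smaller than in all but 0.898% of genes, 0.06 for Sst, 0.08 for Ucn3 and Iapp, and 0.13 for Ppy, against a median of 0.18 for all genes. It was 0.15 for Ins2. Pyy and Ghrl each had an SD of 0.30, larger than in 81.3% of genes, although Pyy is also among the brightest. By level, the median SD was 0.14 for the 4039 genes with means below 6, 0.18 for the 4334 between 6 and 8, 0.21 for the 4747 between 8 and 10, 0.23 for the 1573 genes with means between 10 and 12, 0.19 for the 97 genes between 12 and 13, 0.11 for the 17 genes above 13, and 0.08 for the 5 brightest of these, of which 4 are Ppy, Iapp, Sst and Gcg. The median absolute difference between knockout and control was 0.08, 0.12, 0.22, 0.25, 0.23, 0.09 and 0.03 in the same sets. A difference over 0.5 was seen in 1.21% of the genes below 6, in 18.1% of those between 10 and 12, in 11 of the 97 between 12 and 13, and in 0 of the 17 above 13. The last sets are few genes, so these values describe them and support no test.

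**Figure D2:**
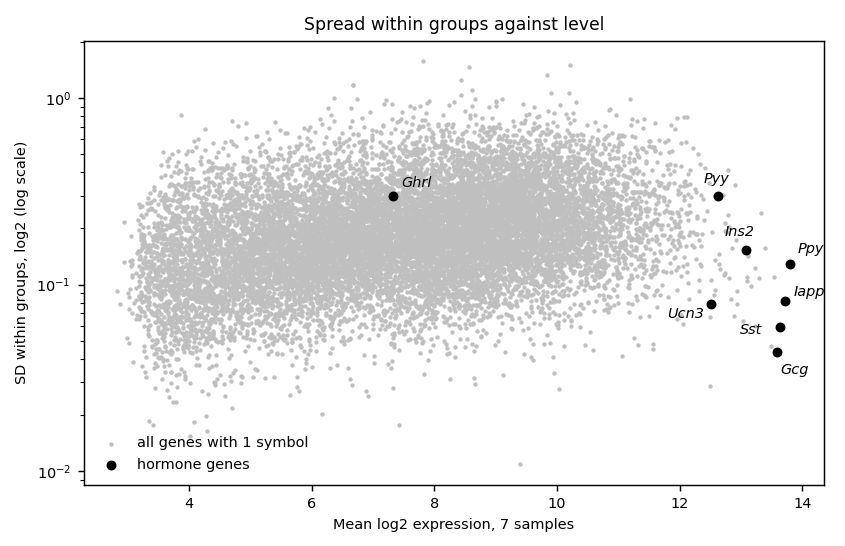
SD within groups (vertical axis, log scale, log2 units) against mean log2 expression over 7 samples (horizontal axis) for 14807 genes in grey and the 8 hormone genes in black. Gcg, Sst, Iapp and Ucn3 lie low for their SD, at 0.04 to 0.08, whereas Pyy, at a similar level to Ucn3, lies at 0.30.

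None of the 8 hormone genes changed in knockout islets by the test across all genes. The test was limma's, two-sided and with Benjamini-Hochberg adjustment over 14807 genes. Adjusted p-values of the members ran from 0.423 to 0.985, and the smallest unadjusted p was 0.109. The groups overlapped for all 8, and did not overlap for 10.9% of all genes in either direction. The background is low for calls, with 1 gene or 0.00675% past the adjusted threshold of 0.05, and 13.7% of genes had an unadjusted p under 0.05. Of the members, 6 had positive and 2 negative differences, against 68.4% positive among all genes, and their median difference was 0.10 against 0.08 for all genes. The call that did pass was Aldh1a3, a marker of dedifferentiated beta cells, 2.96-fold higher in knockout islets, and the deleted genes themselves differed by -0.26 (Foxo1), -0.16 (Foxo3) and -0.47 (Foxo4), none past the threshold.

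Controls 3 and 4 stood apart from the other samples before any grouping of genes. They lay at 43.2 and 30.3 on the first principal component, which held 64.7% of the variance, and the other 5 samples between -29.0 and -3.40. Their immediate early genes, a class induced rapidly by stimulation or handling of tissue, averaged 10.95 and 10.93, against 9.60 to 10.54 in the other 5 samples. The mean of the 100 brightest genes was 12.47 and 12.48 in controls 3 and 4, and 12.62 to 12.74 elsewhere, so their bright signals were lower as a class. The differences of the members, and the medians of the gene lists, are therefore also given without those samples, a choice made after seeing the data. Of the 6 members with a positive difference, 2 (Ins2 and Ppy) then kept it, Ucn3 turned from negative to positive, and 58.5% of all genes had a positive difference.

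The beta cell hormones came first. Ins2, one of the insulin genes of the mouse, was at 13.21, 13.09, 12.79 and 12.85 in controls 1 to 4 and at 13.20, 13.20 and 13.22 in knockouts 5 to 7. The knockouts lay close together and close to control 1, while controls 3 and 4 were the lowest samples. The difference was 0.22 (SE 0.12), a fold of 1.16 with a 95% interval of 0.959 to 1.41 (limma, adjusted p = 0.423). Without controls 3 and 4 it was 0.05 (SE 0.11), and with each array's maximum subtracted, another setting added after seeing the data, 0.11 (SE 0.11). That subtraction lowers the difference of every gene by the same 0.11, the amount by which the maximum itself was higher in knockouts. The part of those samples' other differences in the Ins2 values was not tested. Ins1, the near-identical second insulin gene, was not analysed here, and whether the Ins2 probe set also takes up Ins1 signal was not tested.

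Iapp encodes islet amyloid polypeptide, or amylin, stored in the insulin granule. Its values were 13.69, 13.81, 13.61 and 13.67 in controls and 13.73, 13.65 and 13.80 in knockouts, interleaved between the groups. The difference was 0.03 (SE 0.09), with a 95% interval of the fold from 0.882 to 1.19 (limma, adjusted p = 0.903), and its sign turned with array weights (-0.04) and without controls 3 and 4 (-0.02). The common shift of the array maximum alone took it to -0.08. Ucn3 encodes urocortin 3, a marker of mature mouse beta cells that acts on delta cells to release somatostatin. It was at 12.47, 12.42, 12.63 and 12.52 in controls and at 12.47, 12.46 and 12.57 in knockouts. Unlike Ins2, it was highest in control 3. The difference was -0.01 (SE 0.09), with an interval of the fold from 0.856 to 1.15 (limma, adjusted p = 0.968). The sign for Ucn3 too depended on the setting, from -0.12 with the array maximum subtracted to 0.05 without controls 3 and 4. After quantile normalization the difference was -0.11.

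**Figure D3:**
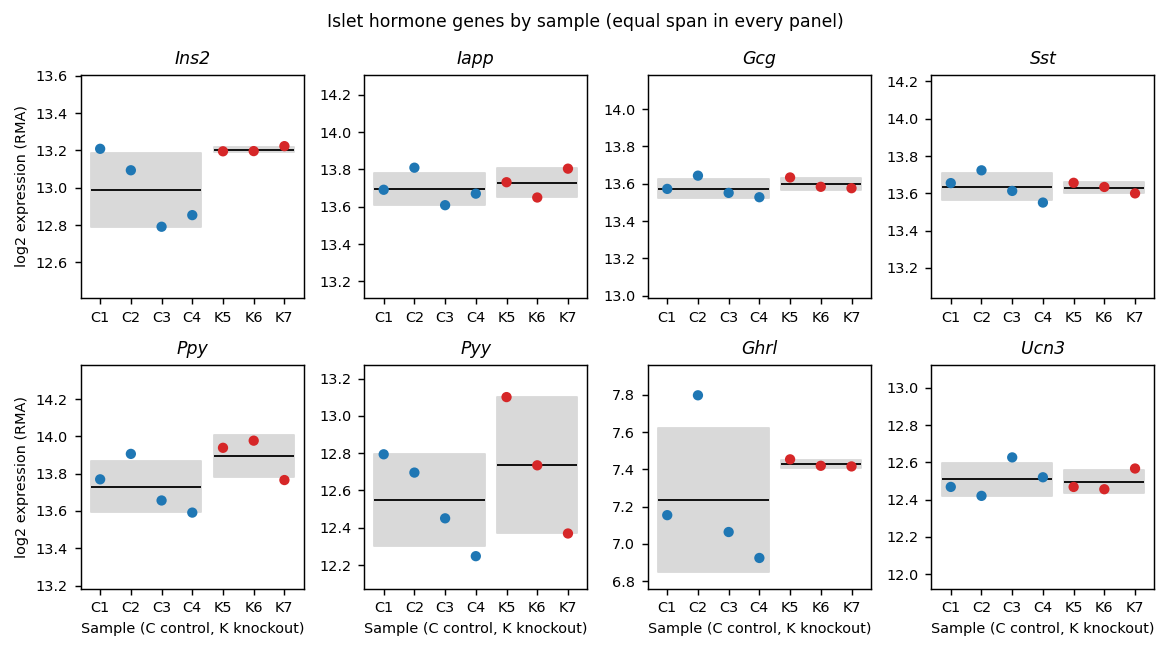
Log2 expression (vertical axis, the same span in each panel) of the 8 hormone genes in controls C1 to C4 (blue) and knockouts K5 to K7 (red), with group means as lines and 1 SD as grey bands. Gcg, Sst, Iapp and Ucn3 are almost level across samples, Ins2 is lowest in controls 3 and 4, and the groups overlap in every panel.

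Glucagon and somatostatin gave the flattest profiles. Gcg, which encodes proglucagon, was at 13.57, 13.64, 13.55 and 13.53 in controls and at 13.63, 13.58 and 13.58 in knockouts. All 7 samples fell within 0.12 log2 units, the narrowest range of the 8 members. The difference was 0.02 (SE 0.08), and the 95% interval of the fold ran from 0.890 to 1.16 (limma, adjusted p = 0.922), and it was -0.01 without controls 3 and 4. Sst was at 13.65, 13.72, 13.61 and 13.55 in controls and at 13.66, 13.63 and 13.60 in knockouts, the knockouts lying inside the range of the controls. Its difference was -0.005 (SE 0.09), with an interval of the fold from 0.867 to 1.14 (limma, adjusted p = 0.985). Without controls 3 and 4 it was -0.06 (SE 0.10), and the common shift of the array maximum took it to -0.12 (SE 0.08). The SEs include the spread pooled over all genes, and in the unmoderated test they were 0.033 for Gcg and 0.045 for Sst. The intervals of both genes are on the signal scale, and where signal is compressed near the top of that scale they understate the differences in RNA that the values allow. Whether these probe sets were compressed was not tested.

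Ppy and Pyy encode pancreatic polypeptide and peptide YY, related gut and islet peptides of the neuropeptide Y family that act on the same group of receptors. Ppy was at 13.77, 13.91, 13.66 and 13.59 in controls and at 13.94, 13.98 and 13.77 in knockouts. Knockouts 5 and 6 were the highest samples, but knockout 7 lay just under control 1. The difference was 0.16 (SE 0.11), a fold of 1.12 with an interval of 0.939 to 1.34 (limma, adjusted p = 0.512), and quantile normalization reduced it to 0.03, leaving out controls 3 and 4 to 0.06. Pyy was at 12.79, 12.70, 12.45 and 12.25 in controls and at 13.10, 12.74 and 12.37 in knockouts. Its spread inside the knockout group, 0.73 from lowest to highest, exceeded the difference between groups of 0.19 (SE 0.20, interval of the fold 0.834 to 1.56, limma, adjusted p = 0.697). Without knockout 7 that difference was 0.37, without knockout 5 it was 0.01, and without controls 3 and 4 it was -0.00995.

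Ghrl, the ghrelin gene of epsilon cells and of the stomach, was the single member with a signal below the median gene. It was at 7.15, 7.80, 7.06 and 6.92 in controls and at 7.45, 7.42 and 7.42 in knockouts. The knockouts lay close together above 3 of the controls and below control 2. The difference was 0.19 (SE 0.20), a fold of 1.14 with an interval of 0.837 to 1.56 (limma, adjusted p = 0.684). Without control 2 it was 0.38 with an adjusted p of 0.269 in the same test, and without controls 3 and 4 it was -0.05. RMA gives no detection call, so whether a signal of this level stands above background could not be told from the values. For all 8 genes, a different share of hormone cells and a different amount of hormone RNA per cell cannot be told apart in whole islets.

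**Figure D4:**
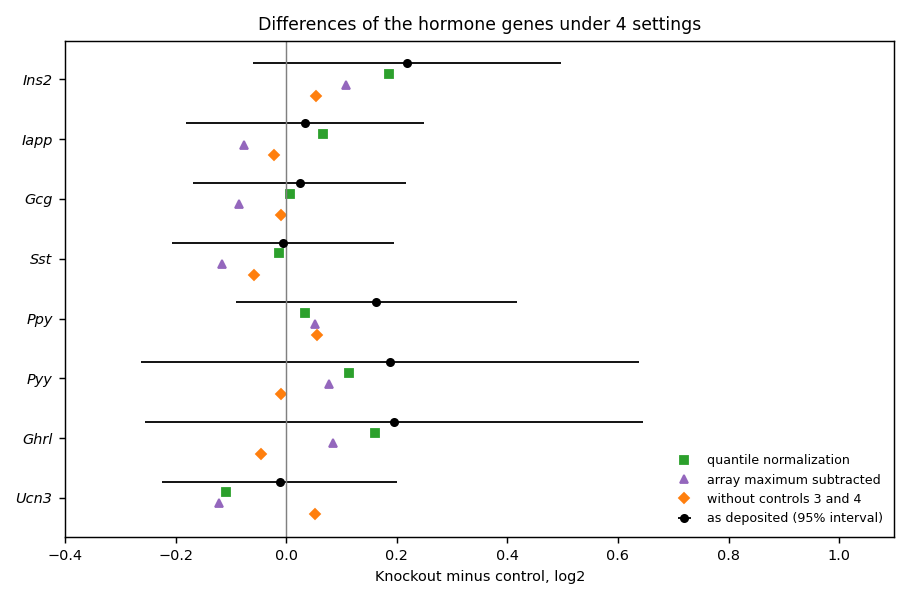
Knockout minus control differences (horizontal axis, log2) of the 8 hormone genes as deposited, with 95% intervals of the limma fit, and as single points after quantile normalization, with each array's maximum subtracted and without controls 3 and 4. Every interval crosses 0, and the points without controls 3 and 4 lie between -0.06 and 0.06.

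Other markers of alpha and beta cells had wider ranges over the samples than Gcg, Ins2, Iapp and Ucn3. Among 6 measured alpha cell markers other than Gcg, the range over the 7 samples ran from 0.56 for Ttr to 2.24 for Pou3f4, an alpha cell transcription factor, against 0.12 for Gcg. The markers were not matched for level: the mean was 6.75 for Pou3f4 and 13.39 for Ttr, against 13.58 for Gcg. Spread depends on level among all genes, with a median SD of 0.18 between 6 and 8 and 0.11 above 13. The mean of the alpha marker list was 8.33 to 9.09 in controls and 8.73 to 9.32 in knockouts. All 6 had positive differences, with a median of 0.25, and 0 passed the test over all genes. Pou3f4 was at 6.94, 5.98, 6.23 and 5.79 in controls and at 8.03, 7.76 and 6.52 in knockouts, a difference of 1.20 (SE 0.39, unadjusted p = 0.0151 in limma). Dpp4, the peptidase that inactivates the glucagon-like peptide made from the same precursor gene, differed by 0.54 (SE 0.29). Ttr differed by 0.22 (SE 0.12) and Irx2, another alpha cell factor, by 0.08 (SE 0.15). Without controls 3 and 4 the alpha cell list had 3 of 6 positive differences and a median of 0.03, with Pou3f4 at 0.97 (SE 0.46) and Dpp4 at 0.07 (SE 0.16).

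Among 8 measured beta cell markers other than hormones, ranges over samples ran from 0.46 for Slc30a8, the granule zinc transporter, to 0.85 for G6pc2, against 0.43 for Ins2, 0.21 for Ucn3 and 0.20 for Iapp. G6pc2 had a mean of 13.33, above that of Ins2 and below those of Gcg, Sst, Iapp and Ppy. It was at 13.47, 13.36, 13.02 and 12.81 in controls and at 13.66, 13.49 and 13.51 in knockouts. Its difference was 0.39 (SE 0.17, limma, unadjusted p = 0.0468). Of the 8 beta cell markers 2 had groups that did not overlap, G6pc2, which was higher in knockouts, and Slc30a8, which was lower, as was so for 10.9% of all genes in either direction. Controls 3 and 4 were the lowest samples for G6pc2, as they were for Ins2. Glp1r, a receptor for glucagon-like peptide, likewise had its lowest values there, at 12.35 and 12.40, and differed by 0.35 (SE 0.16), whereas Slc30a8 had its highest, at 12.92 and 12.86, and differed by -0.24 (SE 0.11). The 8 markers split evenly, with 4 positive and 4 negative differences and a median of 0.03, and their mean was 11.10 to 11.35 in controls and 11.18 to 11.42 in knockouts. The median was -0.02 without controls 3 and 4, and the differences then were 0.14 for G6pc2, 0.10 for Glp1r and -0.11 for Slc30a8.

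Of 5 measured delta cell markers 4 had positive differences, with a median of 0.05, and their ranges over samples ran from 0.14 for Prg4, a dim proteoglycan gene, to 0.71 for Rbp4, against 0.17 for Sst. Hhex, the delta cell transcription factor, was highest in controls 3 and 4, at 7.81 and 7.82 against 7.21 to 7.36 elsewhere, and differed by -0.28 (SE 0.17), while Rbp4, which encodes the retinol carrier, differed by 0.20 (SE 0.21). Ghsr, the ghrelin receptor that delta cells carry, differed by 0.19 (SE 0.16) and Sstr3, a somatostatin receptor, by 0.0003 (SE 0.15). None passed the test over all genes, and without controls 3 and 4 the median was -0.01, with Hhex at -0.01 and Rbp4 at -0.09.

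**Figure D5:**
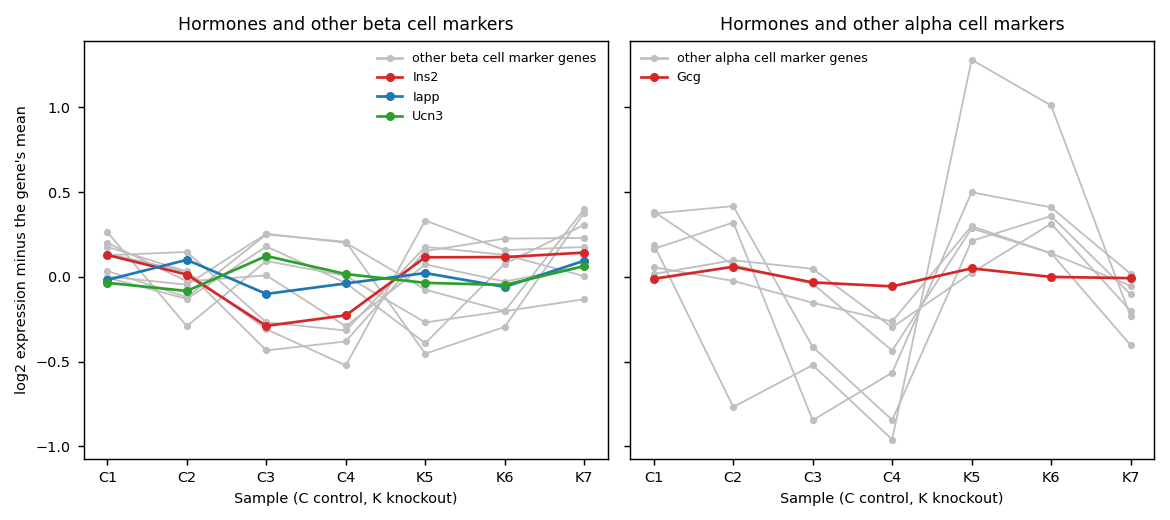
Log2 expression minus the mean of each gene over the 7 samples (vertical axis) in controls C1 to C4 and knockouts K5 to K7 (horizontal axis), for Ins2, Iapp and Ucn3 with 8 other beta cell markers (left) and for Gcg with 6 other alpha cell markers (right), lines joining the values of a gene. Gcg stays within 0.12 units in all, while the grey alpha marker lines range over 0.56 to 2.24.

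The genes around the hormones were examined as fixed lists. Of 16 measured receptor genes for the member hormones or their relatives, 11 had positive differences with a median of 0.03. In limma 1 (6.25%) had an unadjusted p under 0.05, against 13.7% of all genes, and 16 genes are too few to tell these shares apart. Of the 16, 8 lay below the median gene level, and the share of all genes depended on level, at 3.09% for means below 6. The receptor with that p was Npy2r, a receptor for peptide YY, at 0.25 (SE 0.11). Crhr1, in the list as a receptor for relatives of urocortin 3 rather than for urocortin 3 itself, differed by 0.31 (SE 0.17). Of 10 measured genes of prohormone processing and granule content, 7 had positive differences, with a median of 0.09. Scg2, secretogranin 2, differed by 0.19 (SE 0.09), Chgb, chromogranin B, by -0.23 (SE 0.11), and Ide, the insulin-degrading enzyme, by 0.33 (SE 0.16). Of 14 relatives of the hormones, 8 had positive differences with a median of 0.03, among them Calcb, a calcitonin gene-related peptide related to amylin, at 0.50 (SE 0.24), and Adm, adrenomedullin, at 0.35 (SE 0.24). Npy, the neuropeptide Y gene related to Ppy and Pyy, differed by -0.42 (SE 0.27). Of 14 transcription factors of islet lineages 10 had negative differences, with a median of -0.04. Of these factors Isl1 had the most negative difference, at -0.29 (SE 0.16), and Pou3f4, described above, the most positive. In these 4 lists 0 genes passed the test over all genes. With controls 3 and 4 left out the medians were 0.04 for the receptors, -0.03 for processing and granule genes, 0.03 for the relatives and -0.01 for the transcription factors, and Ide differed by 0.08, Crhr1 by 0.06 and Isl1 by -0.05.

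Marker genes of non-endocrine cells were also measured, and their signals are given without a detection call. Below the median gene level were 4 of the 6 ductal and 4 of the 8 macrophage genes. The acinar list, the digestive enzyme genes of the exocrine pancreas with 11 measured genes, averaged 8.28 in control 4 and 9.13 to 9.52 in the other controls, against 8.90 to 9.54 in knockouts, and Ctrb1, chymotrypsinogen, was at 9.85 in control 4 and between 10.81 and 11.59 elsewhere. Control 4 was also the lowest sample for Ppy, Pyy, Gcg, Sst and Ghrl, with no part of the acinar signal in those values tested. Endothelial genes had negative differences for 8 of 9 members with a median of -0.20, including Flt1 at -0.45 (SE 0.14) and Kdr at -0.45 (SE 0.17), both receptors for vascular growth factor. Macrophage genes had a median of -0.11 over 8 genes, ductal genes 0.12 over 6, and stromal genes 0.09 over 9, where Rgs5, a pericyte marker, differed by 0.71 (SE 0.22). Immediate early genes were negative for 15 of 15, with a median of -0.45. No gene of these lists passed the test over all genes. Leaving out controls 3 and 4 gave medians of 0.0004 for immediate early genes, -0.33 for endothelial, -0.24 for macrophage, -0.12 for acinar, -0.01 for ductal and -0.01 for stromal genes, with Flt1 at -0.43, Kdr at -0.34 and Rgs5 at 0.40.

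The genes whose profiles were most like those of the hormones were named for description. Likeness was taken as the root mean square distance between profiles over the 7 samples, each centred on its own mean. Nearest to Ins2 were Copa, a coat protein of Golgi vesicles, and Lpcat1, a phospholipid acyltransferase, both at 0.03, where Ins2 itself deviates from its mean by 0.17. Nearest to Ppy were Cybc1 at 0.03 and Il33 at 0.04, for a deviation of 0.14. Kit at 0.06 and Rnf26 at 0.07 were nearest to Pyy, and Arhgdib at 0.06 and Sh3d19 at 0.10 to Ghrl, both hormones deviating by 0.27. For the flat hormones the nearest genes were Slc25a30 and Sema4a for Iapp (deviation 0.07), Depdc1b and Fam155a for Gcg (0.04), Depdc1b and Ncaph2 for Sst (0.05), and Mefv and Olfr992 for Ucn3 (0.07). Some of the nearest genes were dim, with means of 3.28 for Olfr992, 4.86 for Il33, 4.94 for Depdc1b and 5.24 for Mefv. The means of the others ran from 6.82 for Arhgdib to 12.31 for Copa. Among the hormones themselves Gcg and Sst were nearest to each other, at 0.02, and Ppy was the nearest hormone to Ins2, Pyy and Ghrl, at 0.11, 0.18 and 0.18.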

How the data were processed

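The authors deposited log2 values for 23238 probe sets and 7 arrays, RMA output of Affymetrix Expression Console according to the submitters' processing notes. That the scale is log2 follows from the range of the values (2.50 to 14.3), and neither software version nor genome build is stated in the sources used here. Probe sets with 1 symbol in the platform annotation (14939, of which 14884 matched RefSeq by Entrez ID with 0 symbols changed) named 14807 genes, the highest-mean row standing for the 131 genes with several. Groups came from the sample titles, and the labels name no batch. Pearson correlations between samples across genes ran from 0.967 to 0.995. Knockout was compared with control by limma 3.58.1 (R 4.3.3, all 7 samples, no covariate, no filter, Benjamini-Hochberg over all genes, threshold 0.05). The fit was tested on simulated data with known changes. Named genes were the members, the 10 brightest genes, the 3 genes per list of smallest p, the 3 brightest markers of each cell type and the 2 nearest profiles per member. Members and lists were chosen with earlier results of these data known. Not every gene named by this rule is printed. Ranks and distances to the array maximum had no test. Alternatives were quantile normalization, median centring, a filter on dim genes, mean rows, all probe sets, a trended prior, array weights, an unmoderated test and leaving out each sample. Subtracting the array maximum and leaving out controls 3 and 4 were added after seeing the data.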

Additional observations from a re-analysis of the deposited data

How the results depend on the processing

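No hormone gene passed the threshold in any of 135 refits (17 settings per gene, 16 for Ghrl, which is dropped when dim genes are filtered out at the median level), where adjusted p-values ran from 0.217 upward, and the sign turned in 16 of them, 2 of these from subtracting the array maximum. With single samples left out, differences ran from -0.00423 to 0.0731 for Iapp, -0.0336 to 0.024 for Sst and -0.0468 to 0.0275 for Ucn3, and kept their sign for Ins2 (0.15 to 0.29), Ppy (0.12 to 0.23), Gcg (0.006 to 0.05), Pyy (0.005 to 0.37) and Ghrl (0.09 to 0.38). Without controls 3 and 4 they were -0.0218 for Iapp, -0.0101 for Gcg, -0.00995 for Pyy, -0.0463 for Ghrl and 0.0527 for Ucn3. With array weights they were -0.0367 for Iapp and 0.00849 for Ucn3. The cause of these turns was not tested. With the array maximum subtracted they were -0.0765 for Iapp and -0.086 for Gcg, by construction, since every gene is lowered by the same 0.11. The count of all genes past the threshold, 1 as deposited, was 2 with array weights, 0 with an unmoderated test, 0 with all probe sets as features, 0 without controls 3 and 4, and 0 to 1 with single samples left out. In limma 2028 genes had an unadjusted p under 0.05, and 700 without controls 3 and 4. Mean ranks over samples, 16.4 for Ins2, 1.86 for Iapp, 4.43 for Gcg, 3.14 for Sst, 1.29 for Ppy, 43.0 for Pyy, 7972 for Ghrl and 52.1 for Ucn3 among named genes, became 40.9, 3.14, 6.43, 4.86, 2.57, 109.7, 11247 and 131.0 among all probe sets, by construction since unnamed ones were added. No paired analysis was made, because the sample titles do not say which littermates belong together, so litter was not accounted for. Whether signal of the brightest hormones was compressed was not tested.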
